A study of Mus musculus with 6 samples.

Results

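Genes of neural progenitors, neurons, growth factor reception and myelin were followed in mouse cell lines labelled as anterior and posterior limb mesenchyme of E10.5 embryos, the stage of the early limb bud. The set holds 9 genes, chosen by symbol, among them the progenitor genes Nes and Pax6, the neuronal genes Elavl3, Stmn2, Tubb3 and Ncam1, the nerve growth factor receptor gene Ngfr, and the myelin genes Mbp and Pmp22. Of these, 7 had named probes, 12 probes in all, among the 18242 probes and 9908 named genes tested on the arrays. Pax6 and Tubb3 were not analysed here, because no probe carried their symbol in the annotation used. That annotation covers only probes that some array detected at a p-value under 0.01. An absent probe, an undetected one and one left without a symbol therefore cannot be told apart. Several of the members were picked because their levels differed between these same samples, so their levels below are a description and no test is given for them.

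The samples were 3 of the anterior line and 3 of the posterior line. Both lines were immortalized and, per the labels, carry a temperature-sensitive SV40 T antigen, which drives the cell cycle at the permissive temperature. Neither the mouse strain, the culture temperature nor the number of clones is given in the sources used here, and whether the replicates were grown as separate cultures is not stated either. A p-value here therefore reflects only how much the arrays of a line scattered, and that scatter may be technical. Total RNA was read on 1 bead array per sample in a single colour. Levels are normalized log2 intensities, given per array or as mean ± SD (n = 3 per line), and differences are posterior minus anterior.

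Nestin, the product of Nes, is an intermediate filament protein of dividing neural progenitors and also of muscle and mesenchymal precursors. As progenitors become neurons, they take up RNA-binding proteins of the Hu family such as ELAVL3, the microtubule regulator stathmin 2 and the neuronal tubulin TUBB3, while the adhesion molecule NCAM1 is made by neurons and by many embryonic tissues. Nerves grow into the limb bud from outside with Schwann cells of neural crest origin, and it is these glia that wrap axons in myelin containing MBP and PMP22.

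The arrays detected 16052 to 18657 probes each, a probe counting as detected where its detection p-value was under 0.05. Across tested probes, arrays of the same line correlated at 0.971 to 0.989 and arrays of different lines at 0.882 to 0.905. In the limma fit 4699 of 9908 genes (47.4%) passed an adjusted p of 0.05 (Benjamini-Hochberg over all tested probes), 54.7% of them higher in posterior. With arrays scaled to a common median that share was 72.1%, and the median difference over all genes moved by 0.17. The labelled tissue was checked against marker lists. Limb mesenchyme markers were tested for 5 of 13 genes, all 5 higher in posterior. Their summed signals were 71.3 to 96.6 on the anterior arrays and 316 to 591 on the posterior arrays. Of these 5 genes 2 were detected on all 6 arrays, and 1 on a single anterior array. Another 2 were detected on no anterior array, and as the posterior arrays alone brought them into the test, their direction was fixed. Prrx1, Prrx2, Tbx5, Hand2 and Lhx9, which define limb mesenchyme, had no tested named probe. Whether they lacked a named probe or went undetected cannot be told, so the limb mesenchyme counts and sums cover detected markers only. Markers of pluripotent cells were tested for 12 of 12 genes, all 12 lower in posterior, with summed signals of 49998 to 51059 in anterior and 13332 to 20109 in posterior. Of these 12 genes 10 were detected on all 6 arrays, and Tdgf1 was detected on no posterior array. Most of each posterior sum came from Dppa5a, whose log2 difference was -0.76 against a list median of -3.53. The pluripotent markers left the labelled identity as limb mesenchyme in doubt, above all for the anterior line. Anterior and posterior are used below as the labels' names for the lines. Epithelial markers had summed signals of 867 to 1241 in anterior and 3227 to 5807 in posterior, with 2 of 4 tested genes higher and 1 lower. Endothelial markers ran from 535 to 577 and from 146 to 226, with 1 of 5 higher and 3 lower. The part of any of these markers in the results below was not tested. Summed signals are background-corrected linear intensities of the list's probes on an array.

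Among the 7 measured members the lines did not overlap in 6, each taken at its brightest probe, against 58.3% of all tested genes. Of these 6, Nes, Mbp and Pmp22 lay higher in posterior and Stmn2, Elavl3 and Ngfr higher in anterior. Differences of at least 2-fold were found in the same 6, against 19.8% of all tested genes. Since the members were chosen on this contrast, nothing is read from these counts. In bulk RNA, fewer cells of a type and less RNA per cell cannot be told apart.

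**Figure D1:**
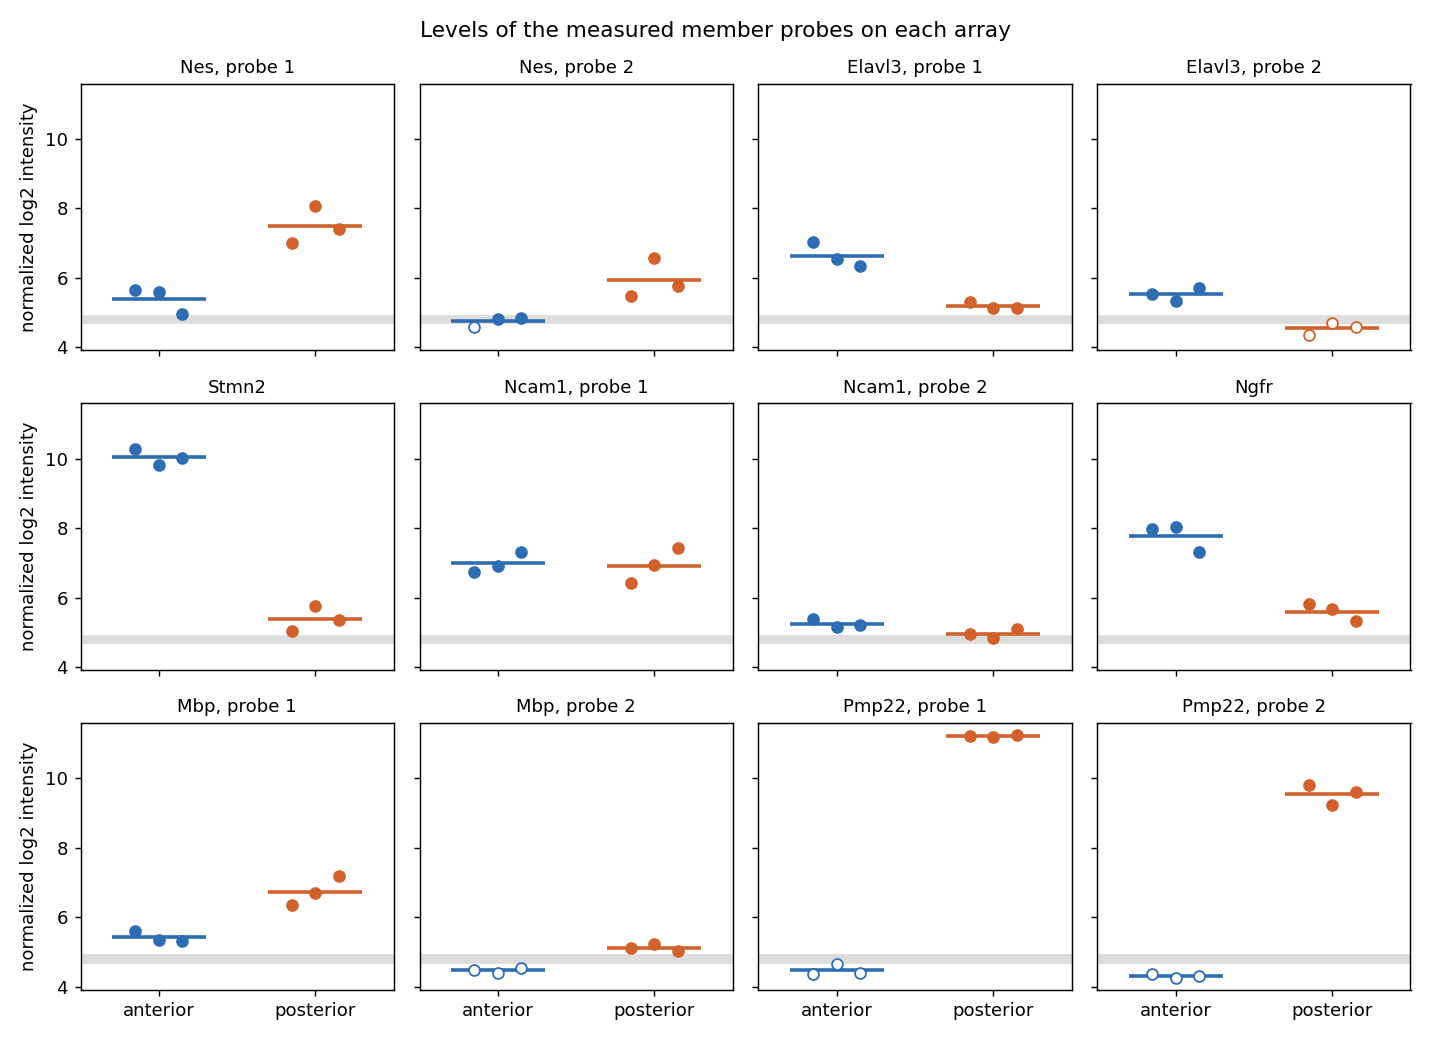
Normalized log2 intensity of each of the 12 member probes on each array, 1 panel per probe, with probe 1 the brighter where a gene has 2. Points are arrays in replicate order from left to right, open points were not detected, bars are line means, and the grey band spans the lowest detected levels of the 6 arrays, 4.70 to 4.91. Stmn2 falls from about the top of its panel in anterior to near the band in posterior, and Pmp22 does the reverse.

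Nes was the measured progenitor gene. Its brighter probe read 5.66, 5.61 and 4.95 on the anterior arrays and 6.99, 8.07 and 7.42 on the posterior arrays. Every array detected it, the lines did not overlap, and posterior replicate 2 was the highest. The means were 5.41 ± 0.39 and 7.49 ± 0.54 (SD, n = 3), a 4.25-fold higher level in posterior. Its dimmer probe, detected on 2 of 3 anterior arrays, read 4.59, 4.83 and 4.84 there and 5.48, 6.57 and 5.78 in posterior. The probes thus gave the same order of posterior arrays, and the dimmer gave a 2.28-fold difference. In the authors' deposited log2 values, which carry no background correction, the difference of the brighter probe was 1.35 against 2.09 here.

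Stmn2, whose protein destabilizes microtubules in growing axons, showed the largest fall among the members. The anterior arrays read 10.26, 9.82 and 10.03, and the posterior arrays 5.06, 5.76 and 5.36. All 6 arrays detected it, and even the lowest anterior array lay far above the highest posterior array. With means of 10.04 ± 0.22 and 5.39 ± 0.35 (SD, n = 3), Stmn2 was 25.1-fold lower in posterior. Its log2 difference was -4.65 here and -3.64 in the authors' deposited log2 values.

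Elavl3, which encodes the neuronal RNA-binding protein HuC, read 7.03, 6.55 and 6.33 in anterior and 5.31, 5.12 and 5.14 in posterior on its brighter probe. The lines did not overlap and all arrays detected the probe, but the posterior values were close to the detection limit. The level was 2.73-fold lower in posterior, and the log2 difference of -1.45 shrank to -0.83 in the authors' deposited log2 values. Its dimmer probe read 5.54, 5.34 and 5.72 in anterior and was detected on no posterior array, a difference of at least 1.74-fold.

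Ncam1, the gene of the neural cell adhesion molecule, read 6.75, 6.91 and 7.31 in anterior and 6.42, 6.93 and 7.42 in posterior. The lines overlapped at this brighter probe. It had means of 6.99 ± 0.29 and 6.92 ± 0.50 (SD, n = 3), and its difference of -0.07 lay within the spread of either line. Its dimmer probe, detected on all 6 arrays, read 5.39, 5.16 and 5.20 in anterior and 4.94, 4.83 and 5.11 in posterior, a difference of -0.29. The 2 probes did not agree on whether the lines overlap, and no direction is given for this gene. The progenitor gene and the neuronal genes thus differed in direction, with Nes brighter in posterior, Stmn2 and Elavl3 brighter in anterior and Ncam1 at overlapping levels.

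Ngfr encodes p75, the low-affinity receptor shared by the neurotrophins and a surface mark of neural crest and Schwann cells. It read 7.96, 8.02 and 7.32 in anterior and 5.81, 5.66 and 5.33 in posterior. Every array detected it and the lines did not overlap. The means of 7.77 ± 0.39 and 5.60 ± 0.24 (SD, n = 3) gave a 4.50-fold lower level in posterior. Its log2 difference of -2.17 was -1.48 in the authors' deposited log2 values.

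Pmp22, a membrane protein of compact myelin that many dividing cells also make, read 4.39, 4.66 and 4.41 on the anterior arrays and 11.21, 11.20 and 11.24 on the posterior arrays. No anterior array detected it, and the posterior arrays read almost alike. Pmp22 was at least 83.5-fold higher in posterior, a bound taken from the lowest detected level of each anterior array or the probe's own value where that was higher. Its dimmer probe, also detected on no anterior array, read 9.82, 9.24 and 9.61 in posterior, at least 26.4-fold higher.

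Mbp, the gene of myelin basic protein, whose longer golli forms are made outside myelin, had modest levels. Its brighter probe read 5.61, 5.35 and 5.33 in anterior and 6.35, 6.70 and 7.18 in posterior. All arrays detected it and the lines did not overlap, with a 2.48-fold higher level in posterior. The log2 difference of 1.31 was 0.79 in the authors' deposited log2 values. Its dimmer probe was annotated to another transcript of the gene. It read 5.13, 5.23 and 5.03 in posterior, was detected on no anterior array, and lay at least 1.23-fold higher. The probes gave different orders of the posterior arrays, with replicate 3 highest on the brighter and lowest on the dimmer.

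**Figure D2:**
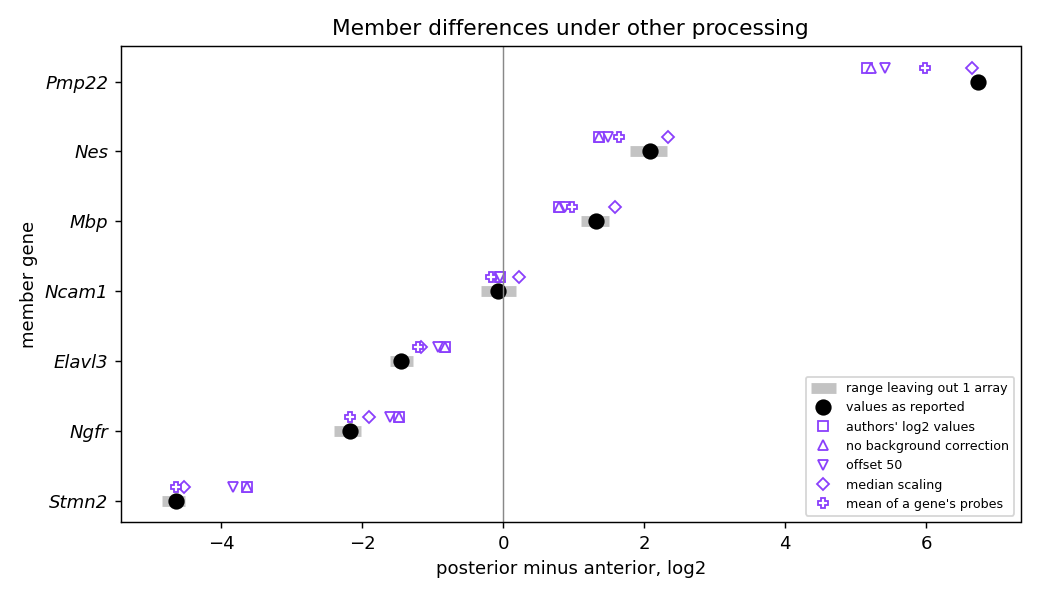
Difference of each measured member, posterior minus anterior on the log2 scale, at its brightest tested probe. Filled circles are the values as reported, grey bars the range when 1 array is left out, and open symbols other processing. Values of Pmp22 are fitted against a line in which no array detected it. Only Ncam1 crosses 0, and values without background correction or with a larger offset lie closer to 0 than those reported.

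The bases just before the start sites of measured members are shown because Elavl3 and Ngfr lay lower and Nes and Pmp22 higher in posterior. The RefSeq promoter table (GRCm38.p6) held 4 of the 7 measured members, Nes, Pmp22, Ngfr and Elavl3. Capitals mark GGGCGG, the GC box, CAGCTG, an E-box read by proneural factors, and TATAAA, the TATA box, each searched on both strands of the 250 bases before the start. These motifs were picked after the sequences had been seen. For Nes (chr3:87970943-87971092, plus strand), Pmp22 (chr11:63128832-63128981, plus strand) and Ngfr (chr11:95587699-95587848, minus strand) the 150 bases before the start are given, and for Elavl3 (chr9:22052044-22052073, minus strand) the 30 bases around its E-box. Pmp22 had 4 start sites in the table, of which the first is shown. Which of them these cells use was not tested.
Nes: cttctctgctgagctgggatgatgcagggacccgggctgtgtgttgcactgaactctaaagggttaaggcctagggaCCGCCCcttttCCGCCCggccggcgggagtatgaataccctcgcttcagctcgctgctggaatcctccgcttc
Pmp22: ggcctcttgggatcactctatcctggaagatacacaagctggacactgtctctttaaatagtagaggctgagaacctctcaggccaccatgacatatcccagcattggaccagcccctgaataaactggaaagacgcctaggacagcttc
Ngfr: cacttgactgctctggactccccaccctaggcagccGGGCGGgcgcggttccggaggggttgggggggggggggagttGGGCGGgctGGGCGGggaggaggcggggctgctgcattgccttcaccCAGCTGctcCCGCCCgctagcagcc
Elavl3: gcgctggCAGCTGcctcTATAAAgggctgg
CAGCTG began 43 bases before the start of Elavl3 and 25 bases before that of Ngfr, and 13% of the 32851 windows in the table held it. Neither Nes nor any of the 4 Pmp22 windows held it. GGGCGG occurred 4 times in the Ngfr window, 2 times in that of Nes and 1 time in that of Elavl3, 20 bases before its start and outside the bases shown. Of the 4 Pmp22 windows the second and the fourth held it 3 times each, and the first, shown here, and the third did not hold it, against 32.7% of all windows with at least 1 match. TATAAA was found among these windows only in that of Elavl3, 33 bases before its start, and in 12.4% of all windows. A match is a stretch of letters and says nothing of binding in these cells.

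The relatives of the members were tested in the limma fit, as genes of lists written beside the members. These 14 lists hold 295 further genes, of which 155 had a tested named probe. The others had no named probe or did not pass the detection filter, so the shares below cover detected genes only. Of these 155 genes 61 (39.4%) were higher and 28 (18.1%) lower in posterior, against 25.9% and 21.5% of all tested genes. A total of 19 of the 155 were detected on no anterior array and 3 on no posterior array, against 5.39% and 1.18% of all tested genes. For such genes 1 line alone carried the probe past the filter, so their direction was fixed by it. Their limma p-values below belong to the fitted difference against undetected values, not to the bound printed beside them. Those p-values lend the direction no support. Among the 112 detected on all 6 arrays, 35 (31.3%) were higher and 24 (21.4%) lower, against 22.0% and 23.1% of all genes detected on all arrays, of which 45.2% passed in either direction. The lists were written with earlier results of these samples known, so these shares describe them and single out no list. Of 66 related genes followed under other processing, 26 had a log2 difference more than 1.5 times smaller in the authors' deposited log2 values, and none changed sign there.

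**Figure D3:**
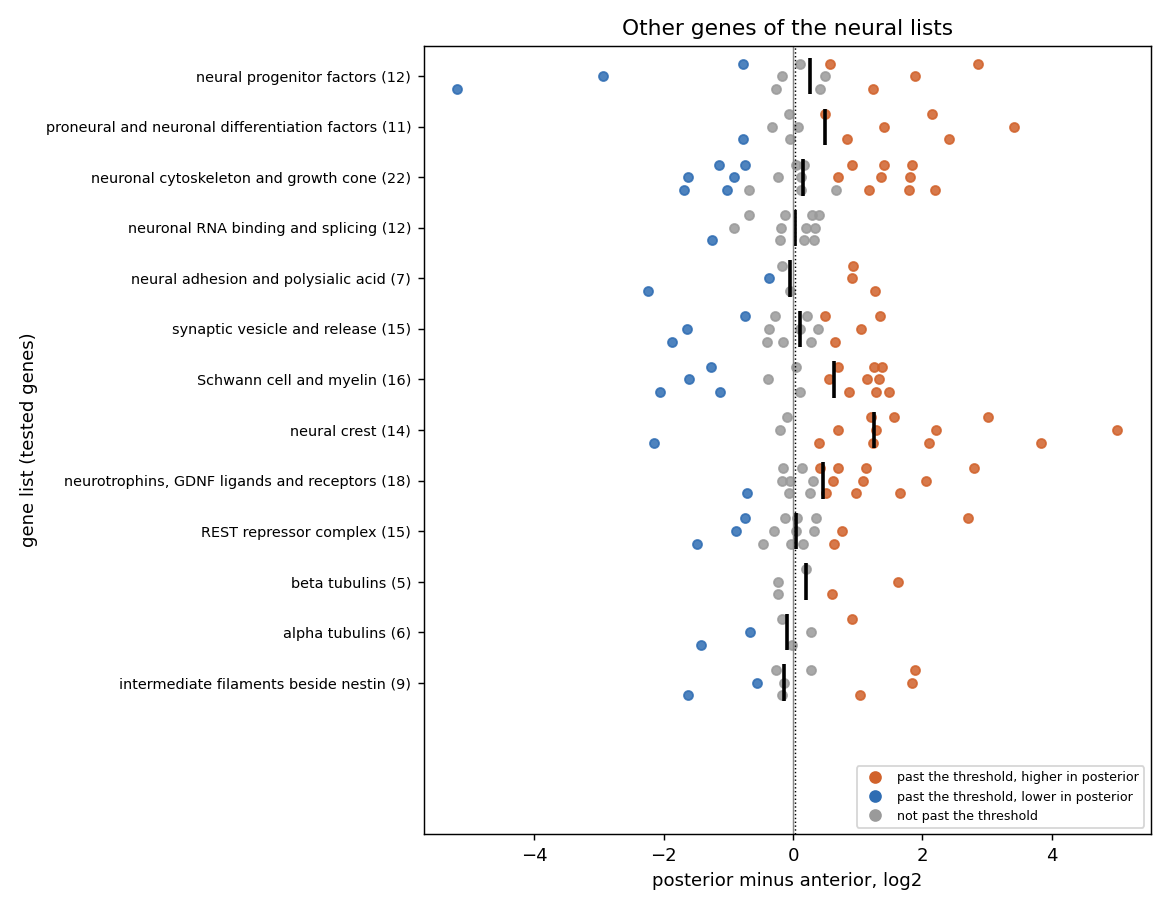
Differences of the tested genes of 13 lists, without the members, posterior minus anterior on the log2 scale. Points are genes coloured by the limma call, thick black marks are list medians, the dotted line is the median of all tested genes at 0.03, and numbers in brackets count tested genes, 19 of them in all detected on no anterior array and 3 on no posterior array. Neural crest genes have the highest median at 1.26, and RNA-binding genes have a median of 0.02.

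Stathmins beside Stmn2 split. Stmn1, the stathmin of dividing cells, was 3.20-fold lower in posterior (log2 -1.68, SE 0.18, limma adjusted p = 0.000169). Stmn3, a neuronal stathmin detected on no posterior array, was at least 1.74-fold lower. The limma adjusted p of 0.0137 for Stmn3 belongs to the fitted log2 difference of -1.02, whose direction the filter fixed. Stmn3 no longer passed without anterior replicate 1 (0.0540) or with every probe tested (0.0710). Stmn4, detected on no anterior array, went the other way and was at least 1.86-fold higher. Its limma adjusted p of 0.00635 belongs to the fitted log2 difference of 1.40, whose direction was fixed by the filter.

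The wider list of neuronal cytoskeleton and growth cone genes also went both ways, with 9 of 22 tested genes higher, 6 lower and a median difference of 0.15. The genes that led were the axonal motor genes Kif1a, 4.56-fold higher (log2 2.19, SE 0.27), and Kif5c, 3.48-fold higher, together with Prph, the filament gene of peripheral neurons, 3.56-fold higher, and Dpysl2, a regulator of axon growth, 3.50-fold higher. Adjusted p in limma was at most 0.00389 for these 4. Averaged over its probes, Kif1a differed by 1.27 on the log2 scale. Ina, the internexin filament gene of early neurons, was 3.09-fold lower, from 8.25 ± 0.19 to 6.63 ± 0.02 (SD, n = 3, limma adjusted p = 4.71e-05).

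Among intermediate filament genes other than Nes, 3 of 9 were higher and 2 lower, with a median of -0.13, and 1 lower gene was left without anterior replicate 1, posterior replicate 2 or posterior replicate 3. Vim, whose protein copolymerizes with nestin, was 3.71-fold higher, with means of 8.08 ± 0.49 and 9.97 ± 0.86 (SD, n = 3, limma adjusted p = 0.00597). Synm, another partner of nestin and vimentin, was 2.05-fold higher (log2 1.04, SE 0.19, limma adjusted p = 0.00284), and Gfap, the astrocyte filament gene, had a log2 difference of -0.27 without passing.

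Tubulins were tested in the absence of a named Tubb3 probe. Of 5 beta tubulin genes, Tubb6 (3.08-fold, limma adjusted p = 0.000118) and Tubb4a (1.51-fold, limma adjusted p = 0.0115) were higher. Tubb2b, an isotype abundant in developing neurons, had 5 tested probes. Its brightest had a log2 difference of -0.24 and did not pass (limma adjusted p = 0.236), while the mean of its probes gave -0.72 (0.00544). Of 6 alpha tubulin genes, Tuba4a was 2.68-fold lower (limma adjusted p = 0.000113). Tuba1a (log2 0.92) and Tuba3b (log2 -0.66) also passed, at limma adjusted p = 0.0285 and 0.0302. Tuba1a no longer passed without anterior replicate 1 (0.0514) or posterior replicate 2 (0.109) or 3 (0.0623), with median scaling (0.0643) or with every probe tested (0.125). With 1 array left out, Tuba3b no longer passed in 4 of the 6 cases, with adjusted p from 0.0656 (posterior replicate 3) to 0.119 (posterior replicate 2), 0.101 without anterior replicate 1 and 0.0865 without anterior replicate 2. The call was also lost with median scaling (0.363) and with every probe tested (0.0988). The medians were 0.20 for beta and -0.09 for alpha tubulins, and whether probes separate the near-identical isotypes was not tested.

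Neuronal RNA-binding and splicing genes mostly did not pass. None of 12 tested genes was higher and 1 was lower, with a median of 0.02. Celf4, a neuronal RNA-binding gene, was 2.38-fold lower (log2 -1.25, SE 0.18, limma adjusted p = 0.000704), and the mean of its probes gave -0.78. The Hu relatives of Elavl3 did not pass. Elavl1, expressed in all tissues, lay at 10.40 ± 0.23 and 10.19 ± 0.20 (SD, n = 3), and Elavl2, a neuronal form, at 7.51 ± 0.91 and 6.60 ± 0.42 (SD, n = 3, limma adjusted p = 0.109). Without anterior replicate 2 Elavl2 passed as lower (0.00313), and the list then had 3 lower genes, while without posterior replicate 1 it had 2 higher genes. Ptbp1, whose protein represses neuronal splicing outside neurons, had a log2 difference of 0.17 at the brightest of its 10 probes without passing, and of -0.45 as the mean of its probes (limma adjusted p = 0.0310).

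For adhesion genes beside Ncam1, 3 of 7 tested were higher and 2 lower, with a median of -0.05. Thy1, a surface glycoprotein of neurons and other cells, was 4.73-fold lower (log2 -2.24, SE 0.20), detected on 1 of 3 posterior arrays. The synaptic adhesion genes Nrxn2 and Nlgn2 were 2.41-fold and 1.91-fold higher, and Cadm1 1.88-fold. Adjusted p of these 4 in limma was at most 0.0160. Nlgn2 no longer passed without posterior replicate 1 (0.0508) or with every probe tested (0.0758). Averaged over its probes, Nrxn2 differed by 0.54 in place of 1.27 on the log2 scale. The second gene called lower, Nfasc, an axonal adhesion gene, differed by -0.36 on the log2 scale at its brightest probe (limma adjusted p = 0.0458), and the list had 1 lower gene when any 1 array was left out. Ncam2, L1cam and the polysialyltransferase genes had no tested named probe.

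In the synaptic vesicle list 4 of 15 genes were higher and 3 lower, with a median of 0.10. Syngr1, a membrane protein of synaptic vesicles, fell from 9.27 ± 0.14 to 7.40 ± 0.17 (SD, n = 3), 3.64-fold, and Cplx1, which clamps vesicle fusion, was 3.11-fold lower. Scg5, a secretory granule gene, and Syt1, the calcium sensor of release, were detected on no anterior array and lay higher in posterior by at least 1.92-fold for Scg5 and at least 1.46-fold for Syt1. Limma adjusted p of these 4 was at most 0.00373. Of 16 genes fixed as defining markers of neurons 8 were tested, 2 higher and 2 lower, with summed signals of 392 to 468 in anterior and 320 to 415 in posterior. Snap25, Nefl, Nefm and Gap43 among them had no tested named probe.

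The progenitor list, which holds transcription factors with filament, adhesion and signalling genes of progenitors, went both ways. Of its 12 tested genes 4 were higher, Vim among them, and 3 lower, with a median of 0.26, or 0.20 with undetected genes at their bound. Otx2, a factor of forebrain and epiblast, was at least 28.0-fold lower, detected on no posterior array, and Sox2, a factor of neural progenitors and of pluripotent cells, was 7.65-fold lower (log2 -2.94, SE 0.21). Gli3, the repressor of Hedgehog targets in neural tube and limb bud, was 7.29-fold higher. Limma adjusted p of these 3 was at most 1.75e-05. In the same samples the pluripotent markers Pou5f1 and Nanog fell from 11.62 to 6.82 and from 11.27 to 7.95, and their part in the fall of Sox2 and Otx2 was not tested.

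Of 11 differentiation factors 6 were higher and 1 lower, with a median of 0.49, or 0.14 with undetected genes at their bound. Lhx1, a homeobox gene of spinal interneurons and of mesoderm, was detected on no anterior array and was at least 6.93-fold higher. Sox11 and Sox4, which activate neuronal genes in newborn neurons and act in mesenchyme as well, were 5.31-fold and 4.41-fold higher, both detected on all arrays. Averaged over its probes, Sox4 differed by 1.31 in place of 2.14 on the log2 scale. Ebf3, a factor of neuronal differentiation, was at least 2.0-fold higher. Adjusted p in limma was at most 0.000235 for these 4. Among genes detected on all 6 arrays, 2 of 6 in this list were higher and 0 lower. None of the 8 other Pax genes had a tested named probe.

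**Figure D4:**
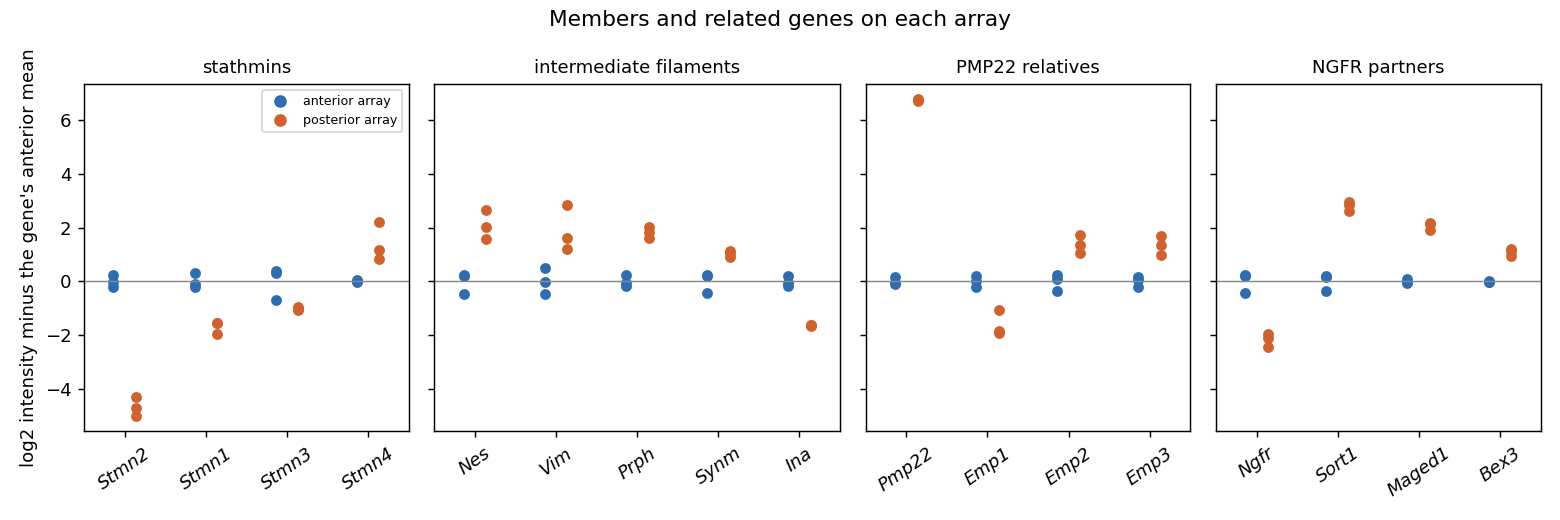
Log2 intensity of members and related genes on each array, minus the gene's own anterior mean, so that only differences within a gene can be read. Blue points are anterior and orange points posterior arrays. Stmn4 and the Emp2 and Emp3 relatives of Pmp22 lie above 0 in posterior, Stmn1, Stmn3, Ina and Emp1 below, and Sort1, Maged1 and Bex3 lie above 0 where Ngfr lies below.

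Among receptor partners and signalling genes of p75, several lay higher in posterior, where Ngfr lay lower, and others did not pass. Sort1, the co-receptor that binds proneurotrophins together with p75, rose from 8.25 ± 0.30 to 11.06 ± 0.17 (SD, n = 3), 6.97-fold (log2 2.80, SE 0.18). Of its 4 probes another was higher by 2.51 and the others did not pass, at 0.40 and 0.35, and the mean of its probes gave 1.51. Maged1 and Bex3, whose proteins bind the intracellular part of p75, were 4.16-fold and 2.11-fold higher. Limma adjusted p of these 3 was at most 0.000312. Irak1, a kinase gene of the same signalling, and Nradd, a relative of Ngfr, had log2 differences of 0.14 and -0.15 without passing. The adaptor gene Traf6 passed as higher at its brightest probe (0.51) and as lower at another (-0.86), so no direction is given for it. In the whole list of neurotrophin and GDNF ligands, receptors and adaptors 10 of 18 tested genes were higher and 1 lower, with a median of 0.46, or 0.34 with undetected genes at their bound, and median scaling left 0 lower. Ret, the GDNF receptor kinase gene, was 3.14-fold higher (limma adjusted p = 0.000265), detected on 2 of 3 anterior arrays, and Bex2, a relative of Bex3, was 2.18-fold higher (limma adjusted p = 0.000619). Among genes detected on all 6 arrays, 6 of 12 were higher. The counts of 10 and of 6 include Traf6 by its brightest probe, and 4 of the 18 genes were detected on no anterior array.

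The closest relatives of Pmp22 split. Emp1 was 3.04-fold lower in posterior, from 8.47 ± 0.20 to 6.87 ± 0.46 (SD, n = 3). Emp2 and Emp3 were 2.61-fold and 2.52-fold higher, Emp2 detected on 2 of 3 anterior arrays. Limma adjusted p of these 3 was at most 0.00114. The Schwann cell and myelin list as a whole had 9 of 16 tested genes higher and 4 lower, with a median of 0.63, or 0.59 with undetected genes at their bound. Among its genes detected on all 6 arrays, 3 of 9 were higher and 4 lower. Erbb2, a subunit of the neuregulin receptor, was 2.80-fold higher (log2 1.49, SE 0.13, limma adjusted p = 4.90e-05). Pou3f1, a factor of promyelinating Schwann cells and of epiblast, was 4.14-fold lower (log2 -2.05, SE 0.27, limma adjusted p = 0.000450). Of 11 markers that define Schwann cells and oligodendrocytes 2 were tested, with summed signals of 23.3 to 34.3 in anterior and 54.0 to 58.0 in posterior. Sox10, the defining factor of crest-derived glia, was detected on no anterior array and was at least 2.11-fold higher, a direction fixed by the filter. Mag, a myelin adhesion gene, had a log2 difference of -0.39 without passing, while Mog and Erbb3 had no tested named probe. Both tested probes were dim, with means of 4.62 and 5.91 for Sox10 and of 5.17 and 4.79 for Mag. The lowest detected levels were 4.70 to 4.91.

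Neural crest genes were higher in 11 of 14 tested cases, with 1 lower and a median of 1.26, or 1.14 with undetected genes at their bound. No anterior array detected 6 of the 14, and among genes detected on all 6 arrays 4 of 6 were higher and 1 lower. Sox9, a factor of crest and cartilage, and Ednrb, the endothelin receptor of crest cells, were detected on no anterior array. Sox9 was at least 22.5-fold higher in posterior, and Ednrb at least 10.48-fold. Their dimmer probes, also detected on no anterior array, gave smaller bounds, at least 1.61-fold for Sox9 and at least 1.10-fold for Ednrb. Ets1 was 8.12-fold higher (log2 3.02, SE 0.23), and Nr2f2, a nuclear receptor gene of mesenchyme and crest, at least 3.09-fold. Limma adjusted p of these 4 was at most 0.000418. Tfap2c, also a germ cell and trophoblast gene, was the 1 lower gene (4.44-fold). Msx1 and Twist1 of this list are also limb mesenchyme markers, 4.29-fold and 2.94-fold higher, so crest and limb mesenchyme cannot be told apart by them.

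REST, a repressor that keeps neuronal genes silent outside neurons, works through corepressors and phosphatases that were tested without a named probe for Rest itself. Of 15 tested genes 3 were higher and 3 lower, with a median of 0.04. Ctdspl, a small phosphatase gene, rose from 4.78 ± 0.13 to 7.48 ± 0.06 (SD, n = 3), 6.50-fold, with 2 of 3 anterior arrays detecting it, and its relative Ctdsp2 was 1.69-fold higher. Rcor2, a corepressor of neural progenitors and embryonic stem cells, was 2.80-fold lower (log2 -1.49, SE 0.22). Limma adjusted p of these 3 was at most 0.00192. Btrc, part of the ubiquitin ligase that degrades REST, was 1.84-fold lower (0.0128 in limma) and no longer passed without anterior replicate 1 (0.0534), with median scaling (0.152) or with every probe tested (0.0579).

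The genes whose pattern over the 6 arrays lay closest to each member were found from the root mean square difference of values centred on each gene's own mean. For Nes these were Flnc, a filamin gene, and Dusp5, a phosphatase gene, at 0.17 and 0.18 log2 units. Stmn2 lay closest to Enox1 and Krt42 (0.20 and 0.27), and Elavl3 to Lyar and 1700030C10Rik (0.04 and 0.08). The pattern of Ngfr was nearest to those of Apobec3 and Thy1 (0.11 and 0.14), that of Mbp to those of Fzd8 and Scg5 (0.04 and 0.07), and that of Ncam1 to those of Ankrd11 and Bzw2 (0.09 and 0.10). Pmp22 lay closest to Hoxb5 and Hoxa5 (0.28 and 0.31), which no anterior array detected either. Hoxb5 was at least 58.9-fold higher in posterior, and Hoxa5 at least 46.2-fold. These distances rest on 6 arrays in 2 groups and describe patterns only.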

How the data were processed

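Per the file headers, the deposited table held an intensity and a detection p-value for each of 45281 probes on each array. The intensities were not normalized between arrays. The authors' deposited log2 values of 18312 probes equal quantile-normalized log2 intensities without background correction, to within 5.00e-09, and cover exactly the probes that some array detected at a p-value under 0.01. Of tools, the submitters' processing notes give limma alone.

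Here neqc from limma 3.58.1 in R 4.3.3 normalized the intensities (background from detection p-values, normexp, offset of 16, log2, quantile). The offset makes differences of dim probes smaller, while the background correction makes them larger. Nes differed by 2.09 here, by 1.49 with an offset of 50 and by 1.36 without background correction. The 18242 probes detected on at least 3 of the 6 arrays were compared with lmFit and eBayes, and 7762 passed. Precision is limited by the 3 arrays per line. Gene names came from the platform annotation, which was at hand only for the 18312 probes of the authors' deposited values. It gives 15550 of these 1 symbol, 9 several and 2753 none. A gene said to have no named probe may thus lack a probe, have gone undetected, or have a probe without a symbol. A gene was represented by its brightest tested probe. Up to 4 genes per list were named, those past the threshold with the largest differences and no overlap, besides relatives of members. Gfap, Mag, Nfasc, Tfap2c, Sox10, Msx1, Twist1, Emp3, Bex3, Ptbp1, Irak1, Nradd, Traf6, Pou5f1, Nanog, Dppa5a and Tdgf1 were named outside this rule, after their values were seen.

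The members and lists were chosen with earlier results of these data known. Same-numbered arrays of the 2 lines had deviations that correlated at -0.08 to 0.29, so the numbers were not taken as pairs. The steps were tested on simulated data in which few probes, all of them bright, were given a change. That setting does not cover changes of dim probes, or a contrast in which 42.6% of probes pass. Plots were made in Python 3.11.15 with matplotlib 3.10.9.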

Additional observations from a re-analysis of the deposited data

How the results depend on the processing

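The alternatives were no background correction, an offset of 50, median scaling, the authors' log2 values, 3 other detection filters, trend and robust variances, the mean of a gene's probes, the replicate block, and leaving out each array in turn with detection asked on at least 2 of the other 5. Nes, Mbp and Pmp22 stayed higher and Stmn2, Elavl3 and Ngfr lower under each alternative that tested them. The difference of Nes ran from 1.35 to 2.34, of Stmn2 from -4.84 to -3.64, of Elavl3 from -1.61 to -0.82, of Ngfr from -2.40 to -1.48 and of Mbp from 0.79 to 1.59, while Ncam1 ran from -0.32 to 0.22. At least 4 members differed by 2-fold or more in each. Of the other neural genes 61 were higher and 28 lower. The higher count was 35 among probes detected on all 6 arrays, where fewer genes were tested. Without 1 array it ran from 50 to 61, and the lower count from 21 to 29. Over all probes, 3865 were higher and 3897 lower; detection on all 6 arrays left 2553 higher, and median scaling 1701 lower against 3870 higher, for which the cause was not tested. With the replicate block 61 neural genes were higher and 26 lower, and 3 of 6 arrays correlated best with their own number. Ptbp1 changed sign with the mean of its probes, at -0.45. Differences of the members depended on the background correction. Without it they were smaller for Nes (1.36), Stmn2 (-3.64), Elavl3 (-0.82), Ngfr (-1.48) and Mbp (0.79), as was the fitted difference of Pmp22. Levels of Elavl3 and Mbp also lay near the detection limit.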
